A study of Mus musculus with 32 samples.

Results

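The integrated stress response genes examined here were 10 genes chosen by name, from the pathway of the transcription factor ATF4 and from serine synthesis: Atf4, Ddit3, Asns, Chac1, Trib3, Sesn2, Ddit4, Psat1, Phgdh and Shmt2. They were found among 55372 gene symbols in a table of 55492 rows, by symbol. The name Ddit3 stood on 2 rows, so 11 rows carried the 10 names, and the second Ddit3 row, a short gene model that overlaps the main one, was listed at 0 in all 32 libraries and was not used further. Each of the 10 genes was above 1 FPKM in all 32 libraries. FPKM is the number of sequenced fragments assigned to a gene, scaled by the length of its transcripts and by the fragments of the library, so levels can be set side by side between genes.

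The samples were mouse embryonic stem cells (day 0) and the retinal organoids grown from them (days 2, 4 and 6), from which polyadenylated RNA was sequenced with 2 libraries per group, 16 groups and 32 libraries in all. WT was the stem cell line Rx:GFP with no treatment, and KO was a Mettl3 KO culture of the same background. Mettl3 encodes the enzyme that writes N6-methyladenosine on RNA. The other cultures were Mettl3 KO cells that overexpressed WTMETTL3-GRBD, a fusion protein, without Dex or with 10 µM Dex (dexamethasone, a synthetic glucocorticoid), and the labels describe the protein as cytosolic without Dex and as moved into the nucleus with it. The medium held AGN at 0.1 µM during differentiation in all lines. No group received Dex in the absence of the fusion, so an effect of Dex itself and one of the moved protein cannot be told apart. The treatment protocol lists 2, 4 and 6 days of Dex, while the day 0 group with Dex carries the Dex label too, and the label was followed. The labels do not say whether duplicates came from separate cultures or how many clones each line comprises. The p-values therefore measure only the spread between these libraries, which may be technical.

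The integrated stress response is the pathway by which cells answer amino acid shortage, unfolded protein, haem shortage or viral RNA. Sensor kinases phosphorylate the initiation factor eIF2, general protein synthesis falls, and a few mRNAs with upstream open reading frames, Atf4 foremost, are translated more. ATF4 protein then binds composite sites at its target genes, together with C/EBP family partners, and raises amino acid synthesis, transport and tRNA charging, while its target Ddit3 encodes CHOP, a factor linked to cell death under lasting stress. Since ATF4 is set largely at translation, the mRNA of Atf4 itself is an incomplete measure of its activity.

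The promoters of the 10 genes were searched for the core of such composite sites because these genes are targets of ATF4 or of its partners. The windows were the 250 bases before the RefSeq transcription start (GRCm38.p6 table), found for all 10 genes, with 2 windows for Psat1. The motifs were TGATGNAA and TGNTGCAA, each searched on both strands, and they overlap in that TGATGCAA matches both. They were chosen after these windows had been seen. Of 32851 windows of the same length in the RefSeq table, 3.45% held the first motif, 2.72% the second and 5.32% either. A match was found for 5 genes, Asns, Chac1, Trib3, Sesn2 and Psat1. The stretches below are shown because they hold these matches, in capitals, read 5′ to 3′ on the strand of the gene, with no base of an annotated exon except in Asns, where the match lies inside the first exon of the GENCODE annotation and is shown with 11 bases on either side.
Asns: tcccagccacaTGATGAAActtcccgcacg
Chac1: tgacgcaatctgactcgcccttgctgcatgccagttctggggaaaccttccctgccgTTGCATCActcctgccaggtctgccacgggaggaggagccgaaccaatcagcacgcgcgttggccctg
Trib3: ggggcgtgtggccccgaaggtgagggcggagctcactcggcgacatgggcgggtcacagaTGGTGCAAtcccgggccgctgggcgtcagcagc
Sesn2: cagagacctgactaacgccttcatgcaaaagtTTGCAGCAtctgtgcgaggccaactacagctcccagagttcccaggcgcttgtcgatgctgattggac
Psat1: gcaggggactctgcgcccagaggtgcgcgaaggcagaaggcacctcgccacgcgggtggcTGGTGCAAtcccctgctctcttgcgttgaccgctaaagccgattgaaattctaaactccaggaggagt

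The Asns stretch is chr6:7693214-7693243, minus strand, and its TGATGAAA begins 23 bases before the RefSeq start. The Chac1 stretch is chr2:119350992-119351116, plus strand, with TTGCATCA, the reverse complement of TGATGCAA, beginning 193 bases before the start. In Trib3 (chr2:152344061-152344153, minus strand) and Psat1 (chr19:15925128-15925255, minus strand) the same letters TGGTGCAA followed by tccc begin 33 and 136 bases before the start. The Sesn2 stretch (chr4:132510607-132510706, minus strand) holds TTGCAGCA, whose reverse complement TGCTGCAA matches the second motif, beginning 218 bases before the start. No match lay in the windows of Atf4, Ddit3, Ddit4, Phgdh and Shmt2. A match is a description of these letters and no evidence of binding.

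The estimated depth of the libraries ran from 28.4 to 53.2 M fragments (M, mega), at which 3 fragments on a transcript of 2 kb correspond to at most 0.053 FPKM, a limit for counting error only. The mean level of Mettl3 at days 0, 2, 4 and 6 was 35.0, 40.7, 33.5 and 35.7 FPKM in WT and 43.4, 39.9, 36.6 and 37.6 FPKM in KO, above WT at 3 of 4 days, and 46.6 to 75.0 FPKM in the fusion line, so the knockout is known here from the labels. An FPKM for the whole gene can include transcripts of an edited allele and does not check the edit, and KO stands throughout for the libraries labelled as such. The summed level of 5 pluripotency markers (Pou5f1, Nanog, Zfp42, Esrrb, Klf4) was 1697 to 1952 FPKM at day 0 and 25.8 to 75.8 FPKM at day 6. The summed level of 4 eye field markers (Rax, Six3, Six6, Lhx2) at day 6 was 538 to 569.8 FPKM in WT, 5.58 to 6.27 in KO, 29.5 to 29.9 without Dex and 263 to 268 with Dex, so the label of a retinal organoid is met by its markers in WT and with Dex and hardly in KO. In such bulk samples, fewer cells of a type and less RNA per cell cannot be told apart.

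The stress response genes moved in the same direction in the fusion line at day 6. They were chosen with earlier results of these data known, so this common direction is a description and not independent evidence. With Dex, all 10 genes were higher than without Dex, in each case with both libraries above both libraries of the other group, a separation in this direction that 37% of the 16276 genes tested showed (68.9% in either direction). Of all genes tested, 42.7% were called in this comparison (6956 genes, of which 3867 were higher), where called means an adjusted p under 0.05 in limma with Benjamini-Hochberg adjustment over all tested genes. The median log2 change of the 10 genes was 0.56, against 0.009 over all genes tested. At day 0 the same contrast had given a median of -0.12, with 1 gene higher and 5 lower of 6 called, beside 43.4% of all genes. The difference between the day 6 and the day 0 contrast, tested as an interaction, was called for all 10 genes and positive in each, beside 48.7% of all genes called. All log2 changes here are on the log2(FPKM + 1) scale, with the standard error after the ± sign.

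**Figure D1:**
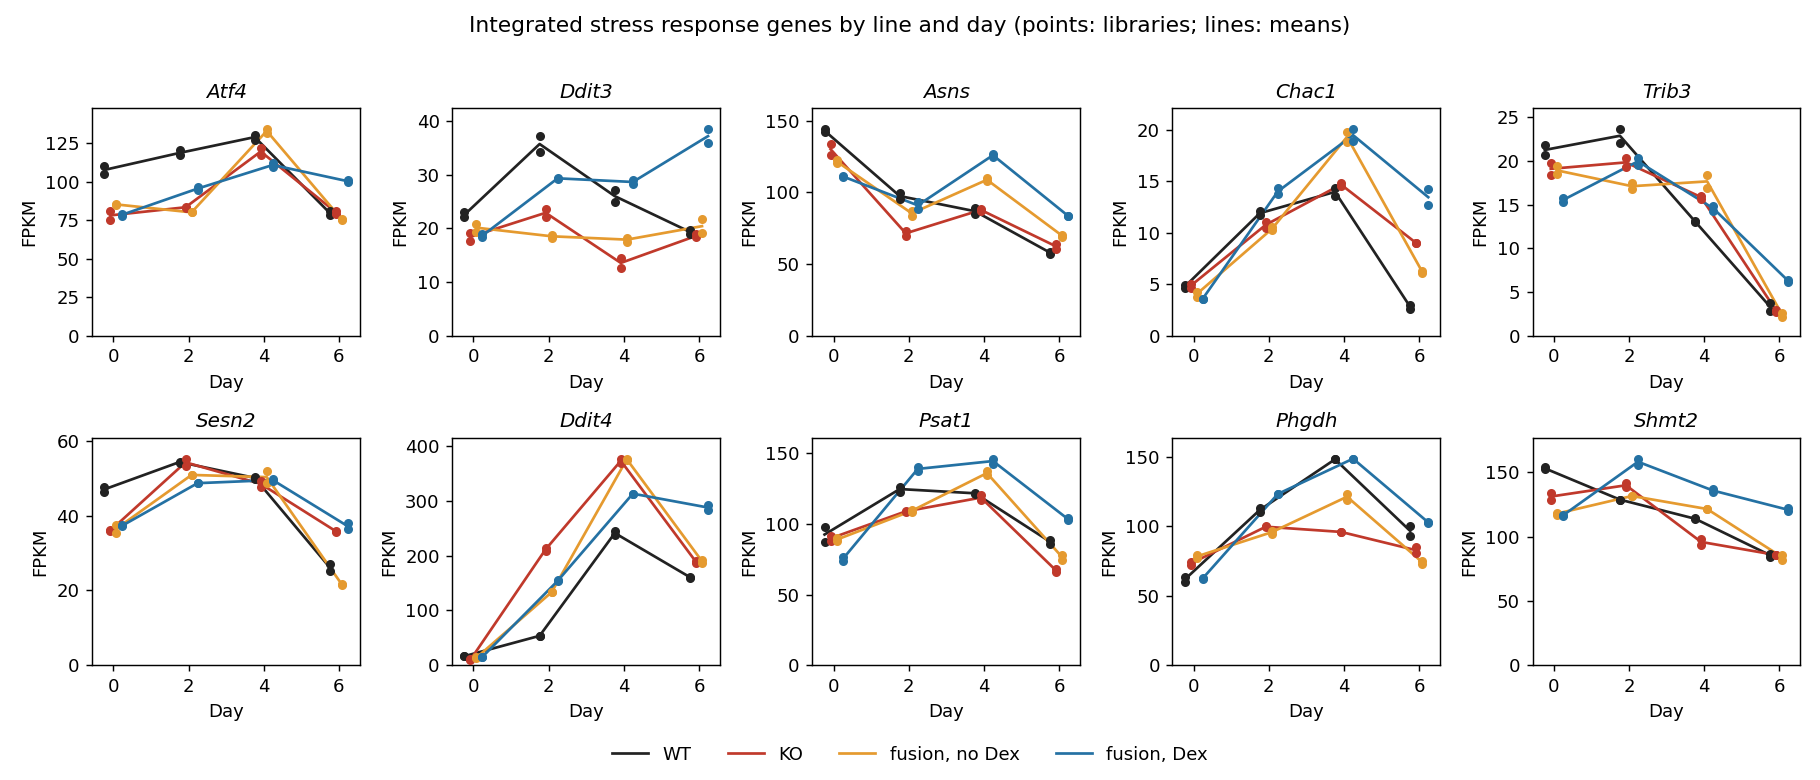
Level of the 10 integrated stress response genes in FPKM (linear axis from 0) by day, with 1 point per library and lines through the means of 2 libraries for WT, KO and the fusion line without and with Dex; points are shifted sideways by culture. At day 6 the Dex points lie above the no Dex points in all 10 panels, while Trib3 falls and Ddit4 rises from day 0 to day 6 in all 4 cultures.

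Atf4 (ENSMUSG00000042406, chr15:80255184-80257541, plus strand), which encodes the central transcription factor of the response, was one of the more abundant members, between 75.0 and 134 FPKM. In WT its libraries stood at 110.2 and 105 FPKM at day 0, 120.2 and 117 at day 2, 127 and 130.5 at day 4 and 78.0 and 81.0 at day 6. In KO they stood at 75.3 and 80.8, 82.8 and 83.8, 117 and 122 and 81.2 and 78.9 FPKM. The KO libraries were below WT without overlap at days 0, 2 and 4 and overlapped WT at day 6. The log2 change of KO against WT was -0.46 ± 0.031 (adjusted p = 6.43e-10) at day 0, -0.50 ± 0.031 (adjusted p = 5.47e-11) at day 2 and -0.11 ± 0.031 (adjusted p = 0.00491) at day 4. The day 4 call was lost without WT replicate 2 (-0.09, adjusted p = 0.0547) and without KO replicate 1 (-0.081, adjusted p = 0.0748).

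The fusion line began near KO for Atf4, with 85.3 and 85.0 FPKM without Dex and 77.8 and 79.2 with Dex at day 0. At day 2 the libraries stood at 80.0 and 80.0 FPKM without Dex and 94.6 and 96.3 with Dex, at day 4 at 134 and 132 and 112 and 109, and at day 6 at 75.7 and 75.0 and 99.7 and 101. Dex libraries were thus above those without Dex at days 2 and 6 and below them at days 0 and 4, without overlap. The log2 changes were -0.12 ± 0.031 (adjusted p = 0.00472) at day 0, 0.25 ± 0.031 (adjusted p = 2.15e-06) at day 2, -0.26 ± 0.031 (adjusted p = 1.52e-06) at day 4 and 0.41 ± 0.031 (adjusted p = 3.34e-09) at day 6. Against WT, Atf4 with Dex was lower at day 0 (-0.45 ± 0.031 (adjusted p = 6.86e-10)) and higher at day 6 (0.33 ± 0.031 (adjusted p = 1.82e-08)). The culture with Dex was the 1 of 4 in which Atf4 was called higher at day 6 than at day 0 (log2 change 0.35, 0.14 after rescaling of the libraries by median-of-ratios factors).

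Ddit3 (ENSMUSG00000025408, chr10:127290774-127296288, plus strand) encodes CHOP, a target of ATF4. Its exons share 68 of 1713 bases with Mars1 on the opposite strand, a gene at 45.0 to 142 FPKM, and whether the counting used strand is not given in the sources used here, so its values are uncertain to that extent. In WT Ddit3 stood at 23.0 and 22.0 FPKM at day 0, 34.2 and 37.2 at day 2, 27.1 and 24.8 at day 4 and 19.7 and 19.0 at day 6. In KO the libraries stood at 17.7 and 19.1, 23.7 and 22.1, 12.5 and 14.6 and 18.9 and 18.3 FPKM. WT was highest at day 2 and KO lowest at day 4, and the KO libraries lay below the WT libraries at each day. KO was lower than WT at day 0 (-0.28 ± 0.067 (adjusted p = 0.00204)), day 2 (-0.62 ± 0.067 (adjusted p = 1.88e-07)) and day 4 (-0.89 ± 0.067 (adjusted p = 8.6e-10)), while at day 6 the difference was not called (adjusted p = 0.509).

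Without Dex the fusion line kept Ddit3 between 17.5 and 21.7 FPKM at all 4 days. With Dex it stood at 18.9 and 18.3 FPKM at day 0, 29.2 and 29.4 at day 2, 28.3 and 28.9 at day 4 and 38.5 and 35.8 at day 6. The day 6 values with Dex were the highest among the 4 cultures at that day. The log2 change with Dex was 0.64 ± 0.067 (adjusted p = 3.79e-07) at day 2, 0.65 ± 0.067 (adjusted p = 2.97e-07) at day 4 and 0.84 ± 0.067 (adjusted p = 7.98e-09) at day 6, and it was not called at day 0 (adjusted p = 0.242; -0.18 and called after rescaling). At day 6 Ddit3 with Dex was also above WT (0.91 ± 0.067 (adjusted p = 6.94e-10)). Mars1, whose reads could reach the shared bases, moved with Ddit3 in several comparisons. It was higher with Dex at day 6, from 70.3 to 84.3 FPKM (log2 change 0.26, adjusted p = 0.0017), and lower in KO than in WT at day 4, from 116 to 69.5 FPKM (log2 change -0.73, adjusted p = 3.1e-09). Its part in the Ddit3 values was not tested.

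Trib3 (ENSMUSG00000032715, chr2:152337422-152344032, minus strand) encodes a pseudokinase that is induced by ATF4 and CHOP and restrains ATF4. It was one of the less abundant members and was lower at day 6 than at day 0 in all 4 cultures. In WT it stood at 20.6 and 21.9 FPKM at day 0, 23.6 and 22.1 at day 2, 13.1 and 13.0 at day 4 and 2.87 and 3.71 at day 6. Its log2 change from day 0 to day 6 was -2.38 in WT, -2.39 in KO, -2.57 in the fusion line left untreated and -1.19 in the treated one. The fall in the Dex culture was smaller than that without Dex, and the interaction was 1.38 ± 0.101 (adjusted p = 2.19e-09). At day 6 the libraries stood at 2.93 and 2.75 FPKM for KO, 2.56 and 2.18 for no Dex and 6.10 and 6.42 for Dex. Both Dex libraries lay above the other 6 libraries of that day. The log2 change was 1.11 ± 0.072 (adjusted p = 3.6e-10) against no Dex and 0.77 ± 0.072 (adjusted p = 1.95e-08) against WT. At day 4 the order was the reverse, with Trib3 lower with Dex than without (-0.26 ± 0.072 (adjusted p = 0.00701)). This call was lost without no Dex replicate 1 (-0.20, adjusted p = 0.09) and without Dex replicate 1 (-0.235, adjusted p = 0.0538).

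Asns (ENSMUSG00000029752, chr6:7675169-7693254, minus strand) encodes asparagine synthetase, the enzyme that makes asparagine from aspartate and glutamine. It was highest in stem cells in WT, KO and no Dex and at day 4 with Dex, and it was lower at day 6 than at day 0 in each culture. At day 0 it stood at 144 and 142 FPKM in WT, 126 and 134 in KO, 122 and 121 for no Dex and 111 and 111 for Dex. The order at day 0 was therefore WT, KO, no Dex and Dex, and no 2 neighbours in it overlapped. The step from KO to no Dex depended on scaling, with a log2 change of -0.10 as deposited and 0.036 after rescaling of the libraries. At day 6 the libraries stood at 58.6 and 57.2 FPKM in WT, 60.6 and 64.0 in KO, 68.9 and 70.6 for no Dex and 83.5 and 83.6 for Dex. The order was reversed at day 6, again with no overlap between neighbours. Such separation was common, with 68.9% of all tested genes in Dex against no Dex at day 6. With a library left out, the log2 change of KO against WT ran from -0.178 to -0.093 at day 0 and from 0.065 to 0.141 at day 6. That of no Dex against KO at day 0 ran from -0.139 to -0.054.

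The largest difference of Asns between KO and WT was at day 2, where WT stood at 95.3 and 99.5 FPKM and KO at 73.3 and 69.5, a log2 change of -0.44 ± 0.036 (adjusted p = 2.87e-09). With Dex, Asns was higher than without Dex at day 4 (0.21 ± 0.036 (adjusted p = 0.000103)) and day 6 (0.26 ± 0.036 (adjusted p = 8.96e-06)), and higher than WT at day 4 (0.53 ± 0.036 (adjusted p = 5.7e-10)) and day 6 (0.52 ± 0.036 (adjusted p = 2.1e-10)). Among the 10 genes, Asns had the smallest log2 change between Dex and no Dex at day 6.

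Chac1 (ENSMUSG00000027313, chr2:119351229-119354381, plus strand) encodes an enzyme that breaks down glutathione and is induced by ATF4. It was the least abundant member in stem cells, at 3.56 to 5.03 FPKM over the 8 day 0 libraries. In WT it stood at 11.7 and 12.1 FPKM at day 2, 14.3 and 13.6 at day 4 and 2.99 and 2.61 at day 6. In KO it stood at 10.5 and 11.1 FPKM at day 2, 14.8 and 14.5 at day 4 and 9.02 and 8.97 at day 6. KO and WT were thus near each other until day 4 and parted at day 6, where the log2 change was 1.40 ± 0.059 (adjusted p = 9.25e-14). At days 0, 2 and 4 the difference was not called (adjusted p = 0.794, 0.0637 and 0.348), while after rescaling Chac1 was called lower in KO at day 2 (-0.243, adjusted p = 0.00162).

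The fusion line at day 6 had 6.12 and 6.30 FPKM of Chac1 without Dex and 14.2 and 12.7 with Dex. All 4 cultures were separated at that day, with WT lowest, then no Dex, KO and Dex. Their log2 changes were -0.47 ± 0.059 (adjusted p = 1.74e-06) for no Dex against KO, 1.00 ± 0.059 (adjusted p = 1.06e-10) for Dex against no Dex and 1.93 ± 0.059 (adjusted p = 1.64e-15) for Dex against WT. The last was the largest change of any of the 10 genes in a comparison of Dex with WT. At day 4 the levels without and with Dex, 18.8 and 19.8 and 18.9 and 20.1 FPKM, overlapped.

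Sesn2 (ENSMUSG00000028893, chr4:132492032-132510501, minus strand) encodes sestrin 2, a leucine sensor that restrains mTORC1 and that ATF4 and p53 induce. Over days 2 and 4 its 16 libraries lay in a narrow band of 47.7 to 55.2 FPKM. As deposited, Sesn2 was called lower at day 2 with Dex than in WT, and without Dex than in KO. With a library left out, these log2 changes ran from -0.159 to -0.152 and from -0.117 to -0.064. After rescaling Sesn2 was called lower in KO than in WT at day 2 (-0.12) and day 4 (-0.15). The cultures differed more at the ends of the course. At day 0 WT stood at 47.7 and 46.3 FPKM and the other 6 libraries at 35.4 to 37.6, with KO lower than WT by a log2 change of -0.38 ± 0.034 (adjusted p = 3.94e-08). At day 6 Sesn2 stood at 27.0 and 25.2 FPKM in WT, 36.0 and 35.6 in KO, 21.8 and 21.3 for no Dex and 37.9 and 36.4 for Dex. KO and Dex were the high pair and WT and no Dex the low pair. The log2 change was 0.44 ± 0.034 (adjusted p = 9.23e-10) for KO against WT, -0.71 ± 0.034 (adjusted p = 3.46e-12) for no Dex against KO and 0.76 ± 0.034 (adjusted p = 2.47e-12) for Dex against no Dex.

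Ddit4 (ENSMUSG00000020108, chr10:59949669-59951834, minus strand) encodes REDD1, another inhibitor of mTORC1, which ATF4, hypoxia, p53 and glucocorticoids can each induce. It was one of the lowest members in stem cells and the most abundant one at days 4 and 6 in all 4 cultures. In WT it stood at 16.2 and 16.9 FPKM at day 0, 53.2 and 54.1 at day 2, 238 and 244 at day 4 and 162 and 159.5 at day 6. In KO it stood at 10.6 and 9.62, 215 and 208, 369 and 376 and 186 and 191 FPKM. KO was below WT in stem cells and above it from day 2, without overlap at any day. Expressed as log2 changes, KO differed from WT by -0.66 ± 0.045 (adjusted p = 6.44e-10) at day 0, 1.96 ± 0.045 (adjusted p = 1.61e-16) at day 2, 0.63 ± 0.045 (adjusted p = 3.65e-10) at day 4 and 0.23 ± 0.045 (adjusted p = 0.000146) at day 6. The day 2 value was the largest of any member in the comparisons at a fixed day.

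Hypoxia and p53 targets moved between the same libraries. Of 8 hypoxia targets, 3 were higher and 4 lower in KO than in WT at day 0, 7 higher and none lower at day 2, 5 higher and none lower at day 4, and none higher and 5 lower at day 6. Over all tested genes the shares called at days 0, 2, 4 and 6 were 48.2%, 58.9%, 60.5% and 65.1%. The numbers of hypoxia targets called at days 4 and 6 thus lay near the background. The median log2 change of the 8 targets at day 2 was 0.88, against 0.088 over all genes tested (6108 called higher and 3473 lower). Among the 8 targets Egln3 went from 4.70 to 30.3 FPKM (log2 change 2.46, adjusted p = 1e-15) and Ankrd37 from 8.36 to 38.2 FPKM (log2 change 2.06, adjusted p = 4.26e-15). Of 12 p53 targets, 10 were higher and 1 lower at day 2, with a median of 0.38. The part of either list in the Ddit4 result was not tested.

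Without Dex the fusion line had 134 and 133 FPKM of Ddit4 at day 2, between WT and KO, with a log2 change against KO of -0.66 ± 0.045 (adjusted p = 3.52e-09). With Dex it stood at 155 and 153 FPKM at day 2, 313 and 313 at day 4 and 283 and 292 at day 6, against 374 and 377 and 187 and 192 without Dex at days 4 and 6. Dex was lower than no Dex at day 4 and higher at day 6. The corresponding log2 changes were 0.21 ± 0.045 (adjusted p = 0.00092) at day 2, -0.26 ± 0.045 (adjusted p = 9.82e-05) at day 4 and 0.60 ± 0.045 (adjusted p = 2.64e-09) at day 6. Since glucocorticoids can induce Ddit4, 9 other glucocorticoid receptor targets are given beside it. At day 6, 5 of them were higher with Dex, none was lower and 4 were not called, beside 42.7% of all genes called, with a median log2 change of 0.091. Of the 8 hypoxia targets, 4 were higher with Dex and 1 lower at day 6, with a median of 0.14, among them Vegfa, which rose from 32.1 to 56.9 FPKM (log2 change 0.81, adjusted p = 7.69e-08). The part of either list in the Ddit4 result was not tested.

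**Figure D2:**
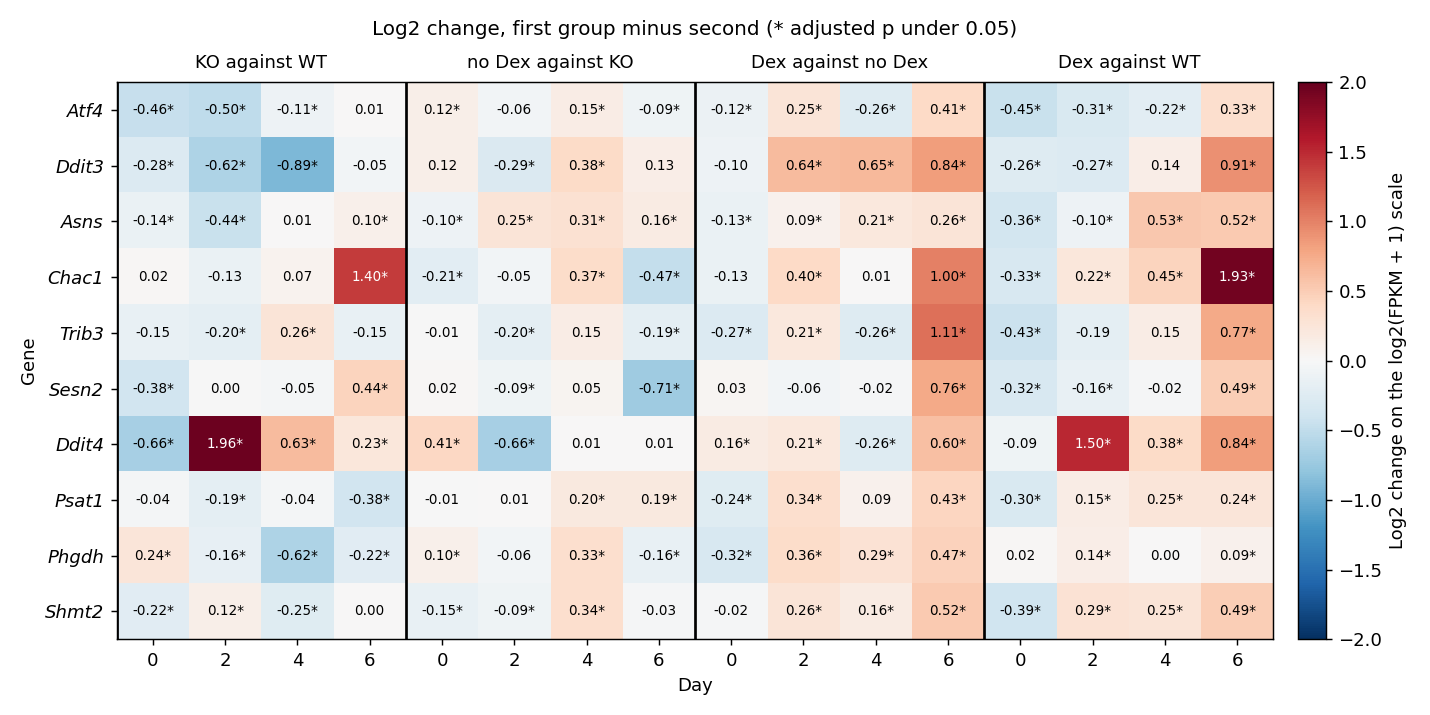
Log2 change of each of the 10 genes (rows) in the 16 comparisons at a fixed day (columns, 4 kinds of comparison by 4 days), on the log2(FPKM + 1) scale with red for higher and blue for lower in the first-named group and an asterisk for an adjusted p under 0.05. The columns of Dex against no Dex and Dex against WT at day 6 are red throughout; the signs of Shmt2 in KO against WT at day 2 and of Asns in no Dex against KO at day 0 changed after rescaling of the libraries.

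Phgdh (ENSMUSG00000053398, chr3:98313170-98339990, minus strand) encodes the first enzyme of serine synthesis, Psat1 the second, and Shmt2 the mitochondrial enzyme that turns serine into glycine and a one-carbon unit. Phgdh in WT stood at 59.8 and 63.4 FPKM at day 0, 113 and 110.0 at day 2, 148 and 148 at day 4 and 99.9 and 93.2 at day 6. In KO it stood at 74.1 and 72.0, 99.9 and 99.2, 95.6 and 96.0 and 84.6 and 80.6 FPKM. KO was above WT in stem cells and below it from day 2, without overlap. The log2 change was 0.24 ± 0.032 (adjusted p = 3.82e-06) at day 0 and -0.62 ± 0.032 (adjusted p = 3.22e-12) at day 4. With Dex, Phgdh stood at 62.1 and 62.7, 123 and 123, 148 and 149 and 103 and 102 FPKM. Without Dex it stood at 77.0 and 79.3, 96.8 and 94.5, 123 and 119 and 75.1 and 73.1 FPKM. Dex was below no Dex at day 0 and above it at the later days. The log2 changes were -0.32 ± 0.032 (adjusted p = 1.61e-07), 0.36 ± 0.032 (adjusted p = 4.06e-08), 0.29 ± 0.032 (adjusted p = 6.02e-07) and 0.47 ± 0.032 (adjusted p = 8.34e-10) in the order of the days.

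Between Dex and WT, Phgdh was higher with Dex at day 2 (0.14 ± 0.032 (adjusted p = 0.00243)) and was not called at day 0 (adjusted p = 0.667) or day 4 (adjusted p = 0.94). After rescaling it was called higher at day 0 as well (0.095, adjusted p = 0.016). At day 6 its log2 change was 0.09 (adjusted p = 0.0219), and it was not called without WT replicate 2 (0.039, adjusted p = 0.368), without Dex replicate 1 (0.084, adjusted p = 0.0895) or without Dex replicate 2 (0.094, adjusted p = 0.0568). A missing call does not show equal levels.

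Psat1 (ENSMUSG00000024640, chr19:15904678-15947337, minus strand) in WT stood at 97.7 and 87.2 FPKM at day 0, 123 and 126 at day 2, 122 and 121 at day 4 and 88.8 and 85.9 at day 6. In KO it stood at 109 and 108 FPKM at day 2 and 65.7 and 68.2 at day 6, below WT at both. The log2 change was -0.19 ± 0.039 (adjusted p = 0.000285) at day 2 and -0.38 ± 0.039 (adjusted p = 5.96e-08) at day 6. At day 0 KO, at 87.9 and 91.5 FPKM, overlapped WT. The fusion line stood at 87.7 and 89.8 FPKM without Dex and 73.4 and 76.5 with Dex at day 0, and at 78.3 and 74.7 and 102 and 104 at day 6. As for Phgdh, Dex was lower than no Dex in stem cells and higher at day 6. Its log2 change with Dex was -0.24 ± 0.039 (adjusted p = 5.04e-05) at day 0, 0.34 ± 0.039 (adjusted p = 8.94e-07) at day 2 and 0.43 ± 0.039 (adjusted p = 4.36e-08) at day 6.

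Shmt2 (ENSMUSG00000025403, chr10:127517123-127522444, minus strand) shares 32 of 3109 exon bases with Ndufa4l2 on the opposite strand, a gene at 0.34 to 101 FPKM, so a small part of its value is uncertain. In WT it fell from 152 and 154 FPKM at day 0 through 129 and 129 at day 2 and 114 and 114 at day 4 to 86.8 and 84.4 at day 6, a log2 change of -0.83 ± 0.025 (adjusted p = 1.26e-16). KO ended at a like level, 86.0 and 85.5 FPKM, overlapping WT, and so did no Dex at 82.1 and 85.9. With Dex, Shmt2 stood at 116 and 117 FPKM at day 0 and 119.8 and 122 at day 6, the difference not being called as deposited (0.053, adjusted p = 0.0594) and called lower after rescaling (-0.156, adjusted p = 7.88e-06). The Dex libraries at day 6 were above all 6 others, by 0.52 ± 0.025 (adjusted p = 5.98e-12) against no Dex and 0.49 ± 0.025 (adjusted p = 2.74e-12) against WT. At day 4 KO stood lowest, at 93.8 and 98.1 FPKM, with a log2 change against WT of -0.25 ± 0.025 (adjusted p = 6.36e-08). At day 2 Shmt2 was called higher in KO (0.12), a difference that was -0.001 after rescaling of the libraries.

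Counted over the 10 genes, KO against WT called 7 at day 0 (1 higher, 6 lower), 8 at day 2 (2 higher, 6 lower), 6 at day 4 (2 higher, 4 lower) and 6 at day 6 (4 higher, 2 lower). Over all tested genes the shares called were 48.2%, 58.9%, 60.5% and 65.1%, so the shares among the 10 genes lay near or moderately above the background. After rescaling of the libraries by median-of-ratios factors the split was 1 higher and 8 lower at day 2 and 1 higher and 7 lower at day 4. The KO against WT difference at day 6 differed from that at day 0 for 8 genes (6 higher, 2 lower), beside 56.9% of all genes. The 2 lower were Psat1 and Phgdh.

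The fusion line without Dex against KO called 6 genes at day 0 (3 higher, 3 lower), 6 at day 2 (1 higher, 5 lower), 7 at day 4 (7 higher) and 7 at day 6 (2 higher, 5 lower). Over all tested genes the shares were 49.1%, 37%, 26.7% and 49%. At day 4 the 7 genes were Atf4, Ddit3, Asns, Chac1, Psat1, Phgdh and Shmt2, with log2 changes from 0.15 to 0.38, and their number was 7 with any library left out. The day 0 and day 2 counts were less steady than that at day 4. At day 6 the split after rescaling was 2 higher and 4 lower. With a library left out, the day 6 log2 changes ran from -0.106 to -0.065 for Atf4 and from -0.272 to -0.109 for Trib3. After rescaling the day 0 split was 6 higher and none lower and the day 2 split 1 higher and 2 lower, and with a library left out 4 genes were called at day 0 and between 3 and 5 at day 2, the 3 being reached without KO replicate 1 and without no Dex replicate 1.

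Dex against no Dex called 9 genes at day 2, all higher, beside 44.3% of all genes, where Sesn2 was the gene without a call. At day 4 it called 7, with Ddit3, Asns, Phgdh and Shmt2 higher and Atf4, Trib3 and Ddit4 lower, beside 40.2% of all genes. The median log2 change of the 10 genes was 0.26 at day 2 and 0.05 at day 4, against -0.081 and -0.009 over all genes tested. After rescaling the day 0 split was 8 lower and none higher. At day 2 the log2 change with a library left out ran from 0.054 to 0.126 for Asns and from 0.183 to 0.238 for Trib3. With any library left out, the day 6 count was 10.

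Against WT, the culture with Dex called 8 genes at day 0 (8 lower), 9 at day 2 (5 higher, 4 lower), 6 at day 4 (5 higher, 1 lower) and 10 at day 6 (10 higher). Over all tested genes the shares were 49.8%, 29.4%, 44.7% and 61.4%. After rescaling the day 0 split was 1 higher and 8 lower and the day 2 split 5 higher and 3 lower. With a library left out, the day 2 log2 change of Asns ran from -0.134 to -0.063. The median over the 10 genes moved from -0.33 at day 0 to 0.51 at day 6, against -0.038 and -0.023 over all genes tested. This comparison shares the Dex libraries with Dex against no Dex and the WT libraries with KO against WT.

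From day 0 to day 6, 9 genes were called in WT (2 higher, 7 lower), 7 in KO (3 higher, 4 lower), 9 without Dex (2 higher, 7 lower) and 8 with Dex (6 higher, 2 lower). Over all tested genes the shares were 78.1%, 80.4%, 81.9% and 80.4%. Rescaling moved the median of all genes by -0.123 for WT, -0.11 for KO, -0.202 for no Dex and -0.153 for Dex, and the splits were then 2 higher and 6 lower in KO and 6 higher and 4 lower with Dex. As deposited, the genes called lower at day 6 in all 4 cultures were Asns and Trib3. After rescaling Sesn2 (-0.16 in KO, -0.21 with Dex) and Shmt2 (-0.16 with Dex) were called lower in all 4 too. Ddit4 was higher in all 4. Chac1 was lower at day 6 in WT (-0.60) and higher in KO (0.77), without Dex (0.52) and with Dex (1.65).

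**Figure D3:**
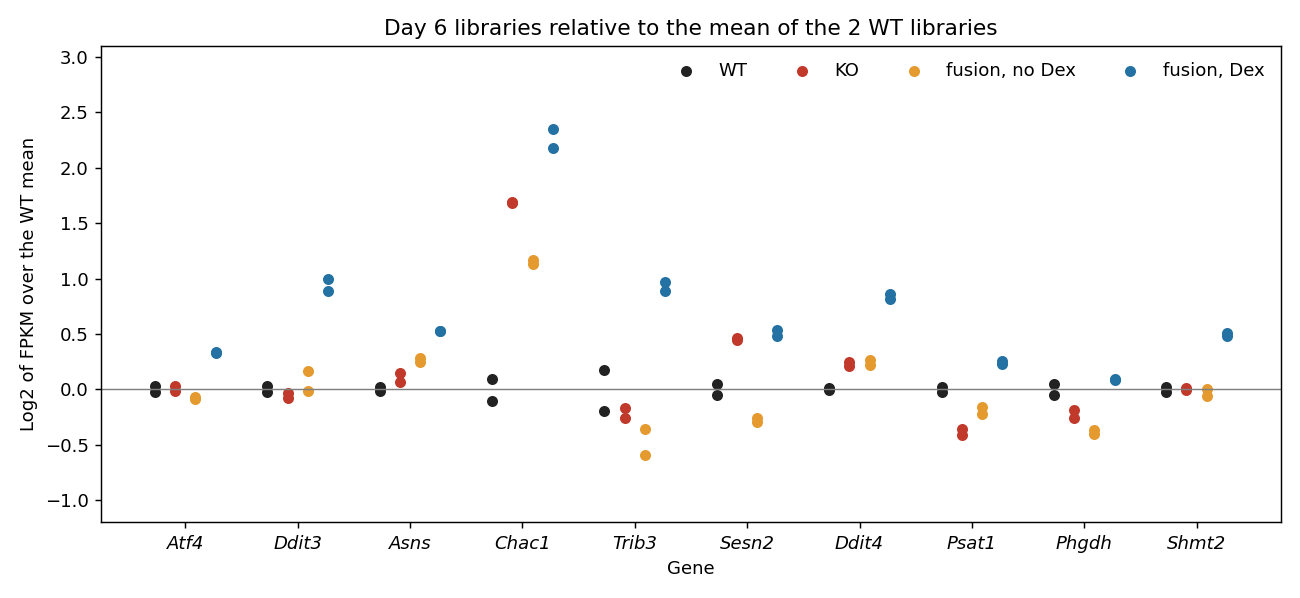
Each day 6 library as the log2 of its FPKM over the mean of the 2 WT libraries (vertical axis, 0 is the WT mean), for the 10 genes, with 1 point per library. The Dex points lie above the points of no Dex and of WT for all 10 genes. For Asns, Chac1 and Ddit4 the KO and no Dex points lie above WT as well.

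Other genes of the pathway are given by list for Dex against no Dex at day 6, where 42.7% of all tested genes were called and the median over all tested genes was 0.009. No difference between lists was tested. Of 6 transcription factors that partner with ATF4 or are its targets, 4 were higher, 1 lower and 1 not called, with a median log2 change of 0.84. Atf5, a factor controlled at translation as ATF4 is, rose from 26.3 to 52.9 FPKM (log2 change 0.98, adjusted p = 1.31e-12), and Jdp2, a repressor of the same family, from 4.78 to 12.2 FPKM (log2 change 1.20, adjusted p = 1.11e-10). Cebpb, a partner of ATF4, rose from 9.01 to 15.9 FPKM (log2 change 0.75, adjusted p = 1.33e-06). Of 8 tested amino acid transporters, 7 were higher and 1 lower, with a median of 0.57. Slc6a9, a glycine transporter, rose from 5.38 to 11.4 FPKM (log2 change 0.96, adjusted p = 1.49e-07), and Slc7a5, the light chain of a large neutral amino acid exchanger, from 46.6 to 73.1 FPKM (log2 change 0.64, adjusted p = 7e-12). The cystine transporter Slc7a11 was under 1 FPKM in all groups and was not tested.

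All 7 tested secreted or other ATF4 targets were higher with Dex, with a median of 0.53. Stc2, which encodes a secreted glycoprotein induced by ER stress, rose from 5.87 to 10.7 FPKM (log2 change 0.77, adjusted p = 6.8e-10), and Pck2, the mitochondrial PEP carboxykinase, from 11.9 to 18.9 FPKM (log2 change 0.62, adjusted p = 6.57e-07). Among 13 genes of tRNA charging and tRNA export 10 were higher and 3 lower, with a median of 0.19, and among 15 further enzymes of serine, glycine, proline and one-carbon metabolism 8 were higher, 1 lower and 6 not called, with a median of 0.23. Aars, which charges alanine tRNA, rose from 50.2 to 64.7 FPKM (log2 change 0.36, adjusted p = 2.58e-10). Mthfd2, a mitochondrial folate enzyme, rose from 24.6 to 35.0 FPKM (log2 change 0.49, adjusted p = 7.37e-09).

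Of 12 genes for eIF2, its kinases, its exchange factor and its phosphatase subunits, 4 were higher and 8 not called, a smaller share than that over all genes, with a median of 0.046. The largest rise there was that of Ppp1r15a, a target of ATF4 that encodes the GADD34 subunit by which eIF2 is dephosphorylated, from 12.6 to 20.3 FPKM (log2 change 0.65, adjusted p = 2.18e-10). Of 15 endoplasmic reticulum chaperones and related genes, which answer to ATF6 and XBP1, 9 were higher and 6 not called, with a median of 0.17, and Herpud1 rose most, from 20.1 to 30.9 FPKM (log2 change 0.60, adjusted p = 3.1e-09). Of 12 p53 targets 7 were higher, 2 lower and 3 not called, with a median of 0.13, and Cdkn1a, the cell cycle inhibitor p21, rose from 23.8 to 44.1 FPKM (log2 change 0.86, adjusted p = 9.91e-10).

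**Figure D4:**
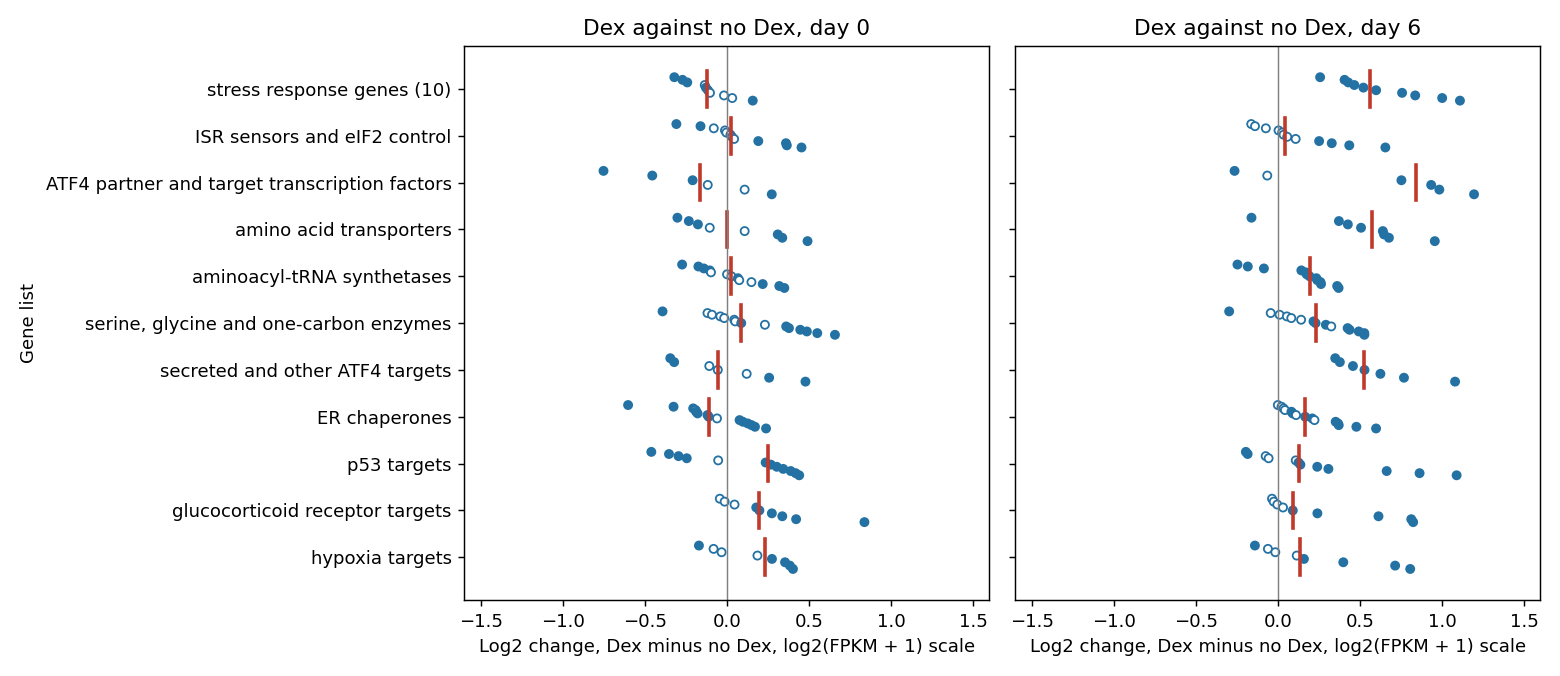
Log2 change of single genes between Dex and no Dex (horizontal axis, log2(FPKM + 1) scale) at day 0 (left) and day 6 (right) in the 10 stress response genes and 10 related lists, with filled points for an adjusted p under 0.05, open points for no call and a red bar at the median of each list. At day 6 the medians of the stress response genes (0.56), their transcription factors (0.84), transporters (0.57) and other ATF4 targets (0.53) lie to the right of those of the sensors (0.046) and of the ER chaperones (0.17). The medians of tRNA charging and of the serine, glycine and one-carbon enzymes lie near that of the ER chaperones. No difference between lists was tested.

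Cell type markers moved between the same libraries. At day 6 all 4 eye field markers were higher with Dex than without, Six6 being at 0.01 FPKM without Dex. Of 5 extraembryonic endoderm markers 4 were higher, with sums of 8.48 to 8.66 FPKM without Dex and 10.9 to 11.5 with Dex. Of those 4, Sox17 rose from 0.27 to 2.885 FPKM, while Gata6, Gata4 and Sox7 reached only 0.455, 0.58 and 0.18 FPKM with Dex. Dab2, which made up most of the sums, went from 8.095 to 7.065 FPKM and was not called. Of 5 pluripotency markers 3 were lower (29.8 to 31.2 against 25.8 to 27.5 FPKM summed), of 4 neural progenitor markers 1 was lower (419 to 421 against 320 to 329 FPKM summed), and of 2 tested mesendoderm markers 1 was higher (0.79 to 1.02 against 1.12 to 1.16 FPKM summed over 4). Of all tested genes 42.7% were called between Dex and no Dex at day 6. The part of these markers in the rise of the stress response genes was not tested. Between KO and WT, all 5 extraembryonic endoderm markers were lower in KO at each day, with sums of 5.37 to 5.52 against 49.96 to 50.41 FPKM at day 2 and 11.4 against 63.6 FPKM at day 6. All 4 eye field markers were lower in KO at days 4 and 6, and all 5 pluripotency markers at day 6 (26.5 to 28.4 against 75.2 to 75.8 FPKM summed). Of the 4 neural progenitor markers 4 were higher in KO at day 2 and 3 at each of the other days (405 to 409 against 210.2 to 214 FPKM summed at day 6). The remaining marker at day 0, Sox1, was called lower in KO (2.405 against 3.9 FPKM, log2 change -0.52, adjusted p = 5.07e-07). At days 4 and 6 the remaining marker was not called. Over all tested genes the shares called between KO and WT were 48.2%, 58.9%, 60.5% and 65.1% at days 0, 2, 4 and 6. The part of these markers in the differences of the stress response genes between KO and WT, those of Atf4 and Ddit3 up to day 4 and of Chac1 and Sesn2 at day 6 among them, was not tested.

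Over the 16 group means, Pearson's r of log2(FPKM + 1) was above 0 in 40 of the 45 pairs of members. The highest values were those of Trib3 with Shmt2 (0.825) and with Sesn2 (0.798), and those among Psat1, Phgdh and Chac1 (0.777 to 0.818), and the lowest was that of Asns with Ddit4 (-0.581). Atf4 itself correlated best with Psat1 (0.736) and with Chac1 (0.681) and little with Ddit3 (0.272). These values are descriptions over groups that share their days and libraries.

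Among 8921 other named genes with a mean of at least 5 FPKM, the pattern most like that of Atf4 was that of Pck2 (r = 0.807), followed by Larp7, Mid1ip1, Tulp3 and Cyp26a1 (0.744 to 0.752). Pck2 was also the gene most like Chac1 (0.932), followed by Tes, Vps36, Mef2b and Cend1 (0.881 to 0.907). For Phgdh they were Carm1 (0.939), Ttc7, Tceal6, Ube4b and Pkm (0.922 to 0.931). Genes of the lists used here among the 5 nearest to other members were Atf5 for Ddit3 (0.705), Slc1a5 for Trib3 (0.956), Bnip3 for Ddit4 (0.976) and Cars for Shmt2 (0.876).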

How the data were processed

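Expression was measured by sequencing polyadenylated RNA in 32 libraries of 16 groups. The authors deposited FPKM per gene, with STAR, Cuffdiff and mm10 named in the submitters' processing notes without roles or versions. Gene positions are from GENCODE M21 (GRCm38), whose identifiers matched 99.4% of rows. Fragments per library were estimated by finding the FPKM worth of 1 fragment in short genes with 1 transcript, whose low values lay in 84.4% to 90.3% of cases within 0.2 of a whole fragment, against 40% for evenly spread values.

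Tests used limma 3.58.1 in R 4.3.3 (lmFit, contrasts.fit, eBayes with a trend) on log2(FPKM + 1), in a single fit of 16 group means, for the 16276 genes with at least 2 libraries at 1 FPKM. The p-values are two-sided and Benjamini-Hochberg adjusted over all tested genes, and a call is an adjusted p under 0.05. The log2(FPKM + 1) scale understates changes of low genes. Of each list the text names called genes among the 4 with the largest change. The script was tested on simulated data. The members and lists were chosen with earlier results of these data known. The deviations of same-numbered libraries did not go together (r from -0.088 to 0.125 over 120 pairs of groups), so replicate numbers do not pair libraries. Alternatives were a pseudocount of 0.1, other filters, median-of-ratios rescaling, fits of the compared groups alone, a replicate block and leaving out each library. Some items are not reported here.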

Additional observations from a re-analysis of the deposited data

Results flagged for a closer look

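For 18 results the effect of a culture differed between day 6 and day 0 by the interaction contrast in limma, which has 2 libraries in each of its 4 groups. In KO against WT the difference of the 2 log2 changes was 0.47 for Atf4, 0.24 for Asns, 1.37 for Chac1, 0.82 for Sesn2, 0.89 for Ddit4 and 0.23 for Shmt2, and -0.34 for Psat1 and -0.47 for Phgdh. In Dex against no Dex it was 0.52 for Atf4, 0.94 for Ddit3, 0.39 for Asns, 1.14 for Chac1, 1.38 for Trib3, 0.72 for Sesn2, 0.44 for Ddit4, 0.67 for Psat1, 0.79 for Phgdh and 0.54 for Shmt2. Ddit3 in KO against WT (0.22) missed the threshold (adjusted p = 0.053) and was called in 3 of the alternatives, a mean of at least 5 FPKM, rescaling and the compared groups alone (adjusted p = 0.0414 to 0.0451). Trib3 missed it too (adjusted p = 0.971). The share of all tested genes called by the same contrasts was 56.9% and 48.7%. Whether the day 0 libraries with the Dex label had received Dex is not clear from the labels, and the Dex contrast rests on them.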

How the results depend on the processing

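All alternatives in this section were planned. Of 169 called changes of single genes, 167 were also called with a pseudocount of 0.1, 162 without a filter on low values, 169 at a mean of at least 5 FPKM, 157 after rescaling and 147 when the compared groups were fitted alone, which leaves few residual degrees of freedom. After rescaling, 21 of the other 51 were called too. With the replicate block 167 remained called, 10 of 10 genes in Dex against no Dex at day 6 among them, and the losses were Asns in Dex against no Dex at day 2 (adjusted p = 0.0555) and in Dex against WT at day 2 (adjusted p = 0.0528). Rescaling turned Shmt2 in KO against WT at day 2 (-0.001) and Asns in no Dex against KO at day 0 (0.036). Counts of called genes moved by over 1.5 times in no Dex against KO, at day 0 to 2 with the compared groups alone and at day 2 to 3 with rescaling, and at day 2 to between 3 and 5 with a library left out. A group with a library left out holds 1 sample, which is assumed to vary like the others. The cause of these shifts was not tested. FPKM without counts limit what can be said of counting error, and 3 fragments on a 2 kb transcript correspond to 0.028 to 0.053 FPKM.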
